A study of Mus musculus with 7 samples.

Results

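Dcn, Col1a2, Pdgfra, Rgs5, Col4a1 and Nid2 are 6 mouse genes of the connective tissue and vessel wall, and their signals were compared in sorted mammary gland cells of the side population (SP) and of the remaining, non-side population (NSP). Members were taken as every probe set (a group of array oligonucleotides read out as 1 signal) that the authors' deposited comparison table assigns to 1 of the 6 genes. This gave 7 probe sets of 1632 listed, and 6 genes of 1311 that the list names by a single symbol, on an array of 45101 probe sets. The authors had listed these 1632 because SP and NSP differed on these same arrays in a paired test. The direction and size of the SP minus NSP differences below are therefore a description, and no count of them is independent evidence.

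SP cells are those that pump out a Hoechst dye and fall in a dim gate of the cell sorter, and NSP cells are those of the dye-retaining gate. There were 3 SP arrays, 3 NSP arrays and 1 array of a universal mouse reference RNA, a commercial pool of RNA from mouse cell lines. The RNA of the sorted cells went through 2 rounds of amplification, per the series' design text. The labels used here give no strain, age, genotype or treatment, and they do not tie replicates to animals. The p-values therefore reflect the scatter of these samples, part of which may be technical.

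The mammary epithelium lies in a stroma in which fibroblasts lay down fibrillar collagen and proteoglycans. Endothelial cells line the capillaries within it, and pericytes wrap them from outside. Both share a basement membrane, a sheet built on a type IV collagen network and a laminin network that nidogens link. Epithelial cells, adipocytes and Schwann cells also rest on basement membranes, so Col4a1 and Nid2 are not restricted to vessels. Dcn encodes decorin, a small leucine-rich proteoglycan that binds collagen fibrils. Col1a2 encodes a chain of type I collagen, and Pdgfra a receptor for platelet-derived growth factors that is widely used to mark fibroblasts. Rgs5, a regulator that shortens G-protein signalling, is a common pericyte marker.

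The probe sets do not describe their genes equally well. Those of Dcn, Col4a1 and Nid2 carry the gene in the authors' annotation of the target sequence. The Col1a2 and Pdgfra probe sets were designed on expressed sequence tags whose own annotation names no gene, and they were assigned by gene number alone. Whether they read the coding transcript was not tested. The Rgs5 probe set was matched through an older symbol of that gene.

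Of the 6 genes, 4 matched a window of the RefSeq promoter table (build GRCm38.p6), which spans 250 bases before the start of the transcript and its first 50 bases. These 4 are shown because they had a window. The signals of all 6 genes were higher in SP cells within every pair. Capitals mark the CCAAT box, searched as CCAAT and its reverse complement ATTGG on these 300 bases, and each window is written in the direction of its gene.
Col1a2, chr6:4505368-4505667, plus strand: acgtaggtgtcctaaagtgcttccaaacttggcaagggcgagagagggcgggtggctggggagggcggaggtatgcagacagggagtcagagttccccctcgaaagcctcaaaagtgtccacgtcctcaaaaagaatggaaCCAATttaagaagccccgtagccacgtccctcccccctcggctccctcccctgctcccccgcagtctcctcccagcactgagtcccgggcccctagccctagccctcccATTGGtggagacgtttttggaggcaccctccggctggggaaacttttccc
Pdgfra, chr5:75152001-75152300, plus strand: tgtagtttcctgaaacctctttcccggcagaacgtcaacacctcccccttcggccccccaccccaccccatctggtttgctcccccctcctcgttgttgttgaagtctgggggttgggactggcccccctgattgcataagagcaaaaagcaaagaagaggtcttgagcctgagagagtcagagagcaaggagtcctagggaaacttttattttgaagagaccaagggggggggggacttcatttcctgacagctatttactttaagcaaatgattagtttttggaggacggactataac
Rgs5, chr1:169655251-169655550, plus strand: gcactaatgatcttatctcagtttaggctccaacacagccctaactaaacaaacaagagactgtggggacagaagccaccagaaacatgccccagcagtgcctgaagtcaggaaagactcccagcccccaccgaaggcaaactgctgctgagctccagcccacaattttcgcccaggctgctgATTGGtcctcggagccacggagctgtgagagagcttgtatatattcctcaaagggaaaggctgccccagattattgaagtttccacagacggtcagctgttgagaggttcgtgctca
Col4a1, chr8:11312777-11313076, minus strand: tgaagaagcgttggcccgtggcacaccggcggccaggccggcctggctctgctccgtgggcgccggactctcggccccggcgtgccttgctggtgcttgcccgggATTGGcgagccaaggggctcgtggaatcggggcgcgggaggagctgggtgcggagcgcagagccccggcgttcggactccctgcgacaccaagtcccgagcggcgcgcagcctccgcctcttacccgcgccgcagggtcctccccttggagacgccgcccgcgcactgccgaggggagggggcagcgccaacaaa
The motif stood at 2 places in the Col1a2 window, beginning 109 bases before the start and at the first base of the transcript. In the Rgs5 window it stood 67 bases before the start, and in the Col4a1 window 145 bases before. The Pdgfra window held none. A CCAAT box was found in 37.4% of the 32851 windows of this length, so matches in 3 of these 4 windows are a description and no site was tested. The start of Col4a1 lies 21 bases from that of Col4a2, which runs on the opposite strand of chromosome 8 and encodes the partner chain of the same collagen.

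Facts of the arrays bear on all values below. The 7 arrays had median signals of 79.3 to 97.2, and all 7 probe sets were called present on all 6 sorted-cell arrays in the authors' deposited table. Control probes at the 3' end of a transcript over those at its 5' end, which show how far amplified copies reach, gave a log2 ratio that was 3.27 to 4.16 in SP and 2.38 to 3.92 in NSP samples for Actb. For Gapdh it was 3.04 to 4.35 in SP and 2.14 to 3.35 in NSP samples, and both ratios were higher in SP in 3 of 3 pairs. On the reference array the ratio was 3.48 for Actb and 2.18 for Gapdh, the latter below every SP array. The part of this ratio in the differences, those against the reference included, was not tested. In sorted populations measured in bulk, more cells of a type and more RNA per cell cannot be told apart.

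Setting SP against NSP cells asks what distinguishes the dye-excluding cells. Each of the 6 genes gave a higher signal in SP than in NSP cells within 3 of 3 pairs. The same held for 16.3% of all probe sets tested and for 605 of the 1632 listed. The differences of the 6 genes ran from 1.17-fold for Pdgfra to 2.01-fold for Dcn. The median log2 difference of the 6 genes was 0.54, against -0.0080 over all 38115 probe sets tested and -0.12 over the 1632 listed. None passed limma with the sample number as a block (adjusted p between 0.396 and 0.676). That fit called 0% of all probe sets (3758 at an unadjusted p under 0.05), and a paired t-test with Benjamini-Hochberg adjustment called none of them either (3265 unadjusted). When that block was combined with a variance that follows intensity, 1.16% of all probe sets and 14.5% of those listed were called higher in SP. Dcn and both Col4a1 probe sets were among them, and the other 4 genes were not.

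Dcn had the highest log2 difference of the 3 fibroblast genes on the signals, though within 1 SE of that of Col1a2, and on the authors' deposited dChip values Col1a2 was higher. The Dcn signal was 12354, 15138 and 15356 in SP replicates 1 to 3, against 7616, 6111 and 7621 in NSP cells. Every SP array lay above every NSP array, and the lowest SP value was well clear of the highest NSP value. The log2 difference was 1.01 ± 0.20 (moderated SE, 3 pairs; limma adjusted p = 0.396). With the intensity trend Dcn was called higher in SP cells, with a limma adjusted p of 0.000634 with the block and 0.00402 without it. In the fit without the block, 0.352% of all probe sets were called higher. These fits used the arrays on which the list was chosen. The authors' deposited table gives a dChip difference of 0.67 for Dcn, on a log scale whose base is not stated. That is 0.67 on the log2 scale if the values are log2 and 0.97 if they are natural logs.

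Col1a2 also separated the groups, on a dim probe set. Signals were 179.5, 225.8 and 207.1 in SP cells, against 96.8, 160.6 and 97.6 in NSP cells. The groups did not overlap, although NSP replicate 2 came within 1 SP SD of the lowest SP array. The log2 difference was 0.82 ± 0.20 (limma adjusted p = 0.425), and it was smallest in pair 2, at 0.49, against 0.89 and 1.09 in the other pairs. In the authors' deposited table its dChip difference was 0.97, above the 0.67 of Dcn on the same scale.

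Pdgfra, the fibroblast receptor, differed least. Signals were 3472, 2384 and 2760 in SP cells, against 3159, 1903 and 2360 in NSP cells. The groups overlapped, and the pairs moved together: replicate 1 was highest and replicate 2 lowest in both populations. The log2 difference within pairs was 0.14, 0.33 and 0.23, for a mean of 0.23 ± 0.15 (limma adjusted p = 0.676). In every pair it was smaller than that of Dcn, at 0.70, 1.31 and 1.01, and than that of Col1a2. With 3 pairs this difference between genes was not tested. The 3 fibroblast genes thus gave log2 differences that ran from 0.23 to 1.01.

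**Figure D1:**
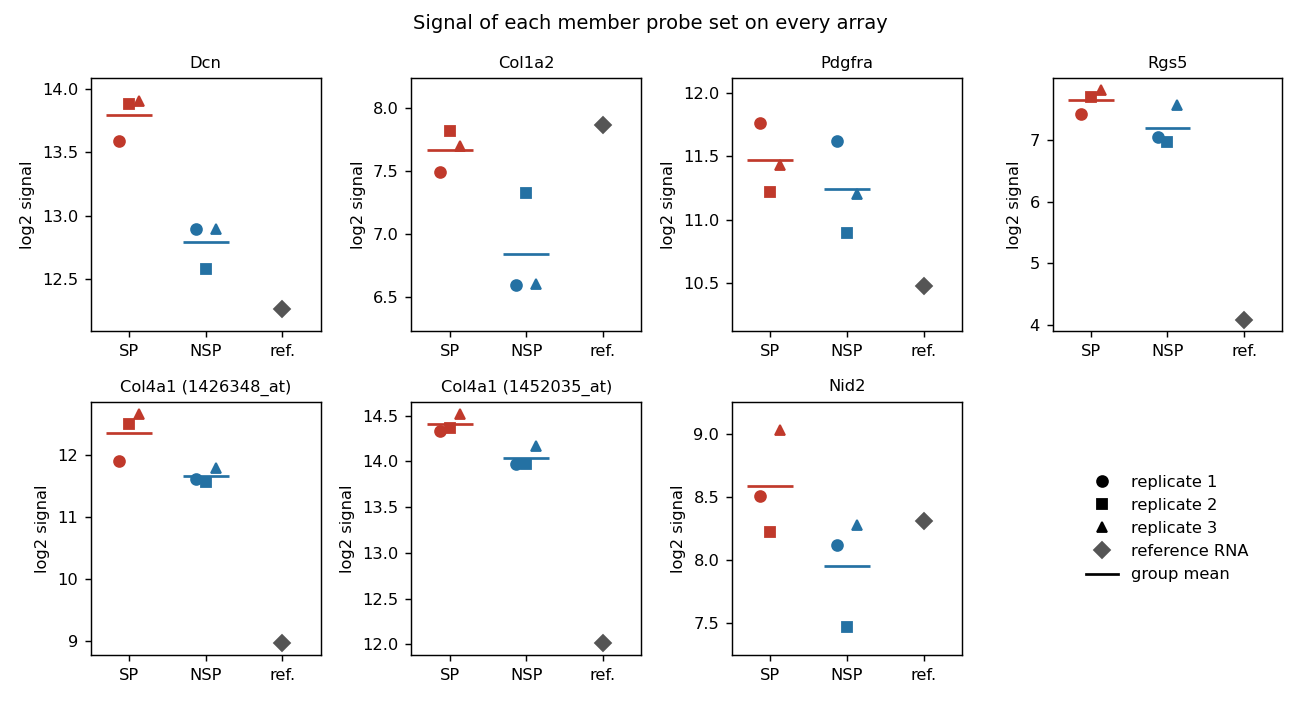
Log2 signal (vertical axis) of each of the 7 probe sets on the 3 SP arrays, the 3 NSP arrays and the reference array, with the floor of 17.0 applied. Symbols mark the replicate number and horizontal lines the group mean. The SP and NSP points do not overlap for Dcn, Col1a2 and Col4a1, and they overlap for Pdgfra, Rgs5 and Nid2.

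The pericyte gene Rgs5 showed a small difference with overlapping groups. Its signals were 171.1, 207.7 and 224.6 in SP cells, against 132.7, 124.7 and 190.1 in NSP cells. NSP replicate 3 lay above SP replicate 1, so the groups separate only within pairs. The log2 difference was 0.45 ± 0.18 (1.36-fold, limma adjusted p = 0.550). Within pairs the log2 difference on the signals was uneven, at 0.37, 0.74 and 0.24. The authors' deposited dChip values gave 0.52, 0.53 and 0.45 on their own log scale. The list was chosen on those dChip values, so nothing is read from how even they are.

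Col4a1, a chain of the collagen network of basement membranes, was read by a pair of probe sets. The brighter, 1452035_at, gave 20572, 21150 and 23526 in SP cells, against 16051, 16097 and 18345 in NSP cells. The dimmer, 1426348_at, gave 3810, 5807 and 6499 in SP cells, against 3128, 3032 and 3531 in NSP cells. Neither overlapped between groups. The brighter differed by 0.37 ± 0.15 on the log2 scale (limma adjusted p = 0.548), with 0.36, 0.39 and 0.36 in the 3 pairs. The dimmer differed by 0.70 ± 0.21 (limma adjusted p = 0.474), with 0.28 in pair 1 and 0.94 and 0.88 in the others. The probe sets agreed in direction and differed in size mainly in pairs 2 and 3, whereas the authors' deposited dChip differences were 0.27 for the brighter and 0.36 for the dimmer. Both were called higher in SP cells with the block and the intensity trend (limma adjusted p = 0.0116 and 0.0105). They did not pass with the trend alone.

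Nid2, a nidogen that joins laminin to collagen, completed the set. Signals were 362.8, 297.8 and 522.6 in SP cells, against 278.3, 177.0 and 309.6 in NSP cells. The groups overlapped at 1 point, since NSP replicate 3 lay above SP replicate 2. As for Pdgfra, the pairs moved together, with replicate 3 highest and replicate 2 lowest in both populations. The log2 difference was 0.63 ± 0.17 (1.55-fold, limma adjusted p = 0.451), with 0.38, 0.75 and 0.76 within pairs.

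Probe sets without overlap between groups with SP higher numbered 4 of the 7, against 6.74% of all probe sets tested and 22.4% of those listed. Since the list was chosen on this contrast, nothing is read from that share.

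**Figure D2:**
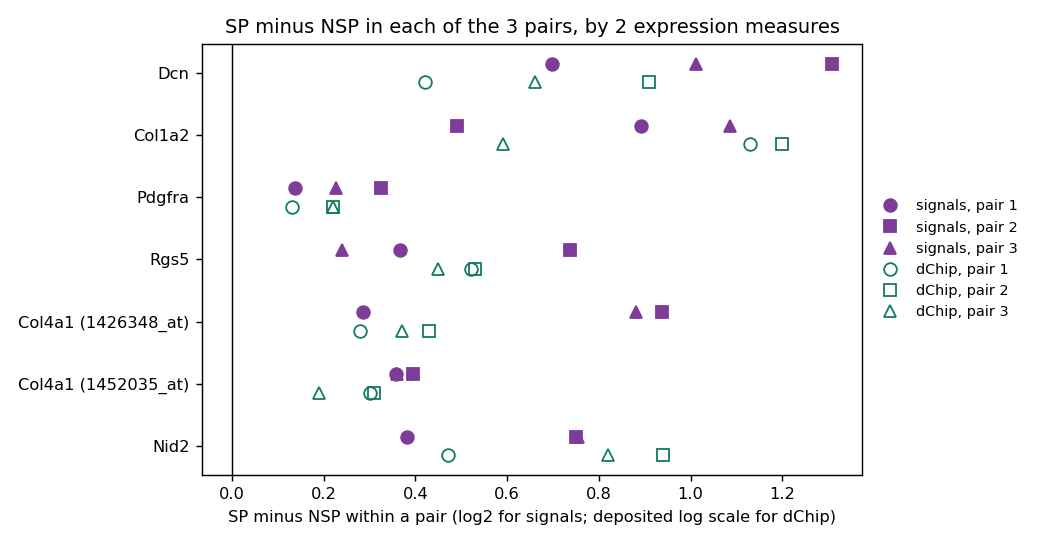
SP minus NSP within each of the 3 pairs (horizontal axis) for the 7 probe sets, from the signals on the log2 scale (filled) and from the authors' dChip values on their deposited log scale (open). All points lie above 0. Dcn reaches 1.31 in pair 2 on the signals, and Pdgfra stays at or below 0.33 on both measures.

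The reference array gave a view that the choice of the list did not use, although the list does require present calls in the sorted cells. It holds 1 array, so its values have no error and no test was made. Rgs5 and Col4a1 were the genes at least 2-fold above it on every SP and every NSP array. Such probe sets made up 4.79% of all tested and 15.1% of those listed. The Rgs5 signal on the reference array was 13.1, below the floor of 17.0, so Rgs5 was at least 11.8-fold higher in SP cells and at least 8.62-fold higher in NSP cells than in the reference RNA. These bounds rest on that floor: with a floor at the 40th percentile the log2 differences were 1.82 in SP and 1.37 in NSP cells, against 3.56 and 3.11. Col4a1 was 5.26-fold above it in SP and 4.07-fold above it in NSP cells by the brighter probe set. By the dimmer one it was 10.5-fold above it in SP and 6.46-fold above it in NSP cells. For both genes the gap between sorted cells and reference was larger than the gap between SP and NSP cells.

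The fibroblast genes stood differently to the reference. Dcn was 2.89-fold above it in SP cells, where every array passed 2-fold, and 1.44-fold above it in NSP cells, where none did. Probe sets for which every SP array passed 2-fold upward made up 7.65% of probe sets tested and 19.5% of those listed. Pdgfra was 2.00-fold above it in SP and 1.71-fold above it in NSP cells, with all 6 sorted-cell arrays above the reference signal of 1420. Col1a2 went the other way. Its reference signal of 233.3 exceeded all 6 sorted-cell arrays, and the log2 difference from it was -0.20 in SP and -1.02 in NSP cells. After quantile normalization of the 7 arrays the SP value was -0.010, which leaves hardly any gap between SP cells and reference. Nid2 had a reference signal of 316.3, within the range of the SP arrays and above all 3 NSP arrays, with a log2 difference from it of -0.35 in NSP cells.

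**Figure D3:**
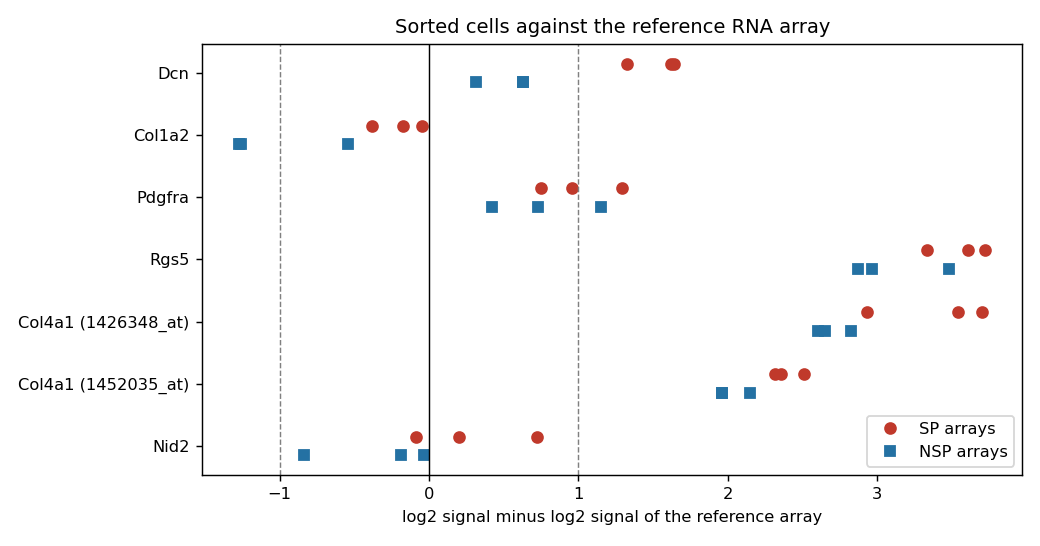
Log2 signal of each SP array (circles) and NSP array (squares) minus that of the reference array (horizontal axis) for the 7 probe sets, with dashed lines at 2-fold. Rgs5 and Col4a1 lie beyond the upper line on all arrays, Col1a2 lies below 0 and Nid2 spans 0. For Rgs5 the reference lay at the floor, so its distances depend on the floor and shrink to means of 1.82 in SP and 1.37 in NSP cells with one at the 40th percentile.

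The order of the groups therefore differed between genes. For Dcn it ran from SP over NSP to the reference with no overlap. For Col4a1 the same order held. For Pdgfra and Rgs5, SP and NSP both stood above the reference and overlapped with each other.

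The members also varied together to different degrees over the 6 sorted-cell arrays, which share the contrast on which the list was chosen. Across those arrays the log2 signals of Col4a1 correlated at 0.939 with Dcn, 0.917 with Rgs5 and 0.842 with Nid2. Among the fibroblast genes, Dcn correlated with Col1a2 at 0.746, and Pdgfra correlated with Dcn at 0.409 and with Col1a2 at -0.075. Of the 1310 other named genes, those most like each member over all 7 arrays were also found. Rgs5 and Col4a1 were among each other's nearest 3 (Pearson r = 0.995 over 7 arrays), a value in which the low reference array weighs heavily, since it was 0.917 over the 6 sorted-cell arrays. Both were also close to Ch25h, a cholesterol hydroxylase gene (r = 0.994 with Rgs5 and 0.998 with Col4a1), and to Kcne4, a potassium channel subunit gene (0.989 with Rgs5 and 0.995 with Col4a1). Without the reference array these were lower, at 0.890 for Ch25h and 0.804 for Kcne4 with Rgs5, and 0.963 for Ch25h and 0.952 for Kcne4 with Col4a1. The gene nearest to Dcn was Zmym1 (0.982), followed by Ptprb (0.976), a receptor phosphatase of endothelial cells, and Adamts9 (0.965), a matrix protease gene. For Nid2 the nearest was Rgs2 (0.965), another regulator of G-protein signalling, with Polg2 (0.924) and Cxcl1 (0.888) after it. Col1a2 lay nearest to Tob2 (0.926), Ccn1 (0.923), a matrix-associated growth regulator, and Plxnd1 (0.909), a semaphorin receptor. For Pdgfra, Ikbip (0.960) and Gvin1 (0.952) were among the nearest 3.

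Related genes were read from lists of the same cell types and structures. Only genes on the authors' list carry a name here, so most members of each list were not analysed, and none of the genes in the following paragraphs passed limma with the block (adjusted p of at least 0.376). On the list of fibroblast and interstitial matrix genes, 4 of 34 were named and all 4 were higher in SP cells, with a median log2 difference of 0.58. Decorin and osteoglycin were also the 2 named of 11 small leucine-rich proteoglycans. The gene not yet described was Ogn, osteoglycin, a proteoglycan of the same family as decorin. Its signals were 203.6, 330.9 and 281.2 in SP cells, against 216.3, 192.5 and 229.1 in NSP cells, a log2 difference of 0.33 ± 0.24 (limma adjusted p = 0.694), with pair 1 in the opposite direction. Unlike Dcn, its reference signal of 1632 was above every sorted-cell array.

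On the pericyte and mural cell list 3 of 21 genes were named, and they did not move one way. Abcc9, the sulphonylurea receptor subunit of mural potassium channels, gave 492.8, 420.1 and 785.4 in SP cells, against 305.5, 228.2 and 402.0 in NSP cells. Its log2 difference was 0.85 ± 0.16 (limma adjusted p = 0.389). Combining block and trend gave 0.0266 as the limma adjusted p, and SP replicate 2 stood just above NSP replicate 3. Cnn1, calponin of contractile smooth muscle and myoepithelial cells, differed by -0.86 ± 0.21 (limma adjusted p = 0.432). The RGS family list had 3 named genes of 20, all higher in SP cells in 3 of 3 pairs, with Rgs2 at 0.58 ± 0.16 and Rgs16 at 0.29 ± 0.16.

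Of the PDGF ligands and receptors, the receptor Pdgfra and the ligand gene Pdgfb were named. Pdgfb, whose product recruits pericytes to vessels, had signals of 310.5, 346.5 and 431.7 in SP cells, against 775.6, 1090 and 743.8 in NSP cells. It was lower in SP cells without overlap, by -1.25 ± 0.24 on the log2 scale (limma adjusted p = 0.389, and 0.00440 when block and trend were combined), whereas Pdgfra was higher by 0.23. Of the 3 named pericyte and mural cell genes, Cnn1 was also lower in SP cells, and Rgs5 and Abcc9 were higher.

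The basement membrane list divided by gene. Of 27 genes 7 were named, 3 higher and 4 lower in SP cells, each in 3 of 3 pairs, with a median of -0.49. Those higher were Col4a1, Nid2 and Smoc2, a calcium-binding matrix protein gene that differed by 0.70 ± 0.17. Those lower included 2 laminin chain genes of epithelial basement membranes, Lamb3 at -2.29 ± 0.20 and Lama3 at -2.24 ± 0.23. Agrn, which encodes the proteoglycan agrin, differed by -1.22 ± 0.23 and Tinagl1 by -0.49 ± 0.20. With block and trend together, 2 of the 7 passed higher and 3 passed lower. Of all probe sets tested, 1.16% were called higher and 1.31% lower, and 14.5% of those listed were called higher. Since the named genes come from that list, nothing is read from these counts. All 4 named matrix receptors of 24 were lower in SP cells, from -0.19 ± 0.15 for Itgb5 to -3.15 ± 0.21 for Itgb6.

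Of the genes of collagen processing and matrix turnover, 5 of 34 were named, with 3 higher and 2 lower. The metalloprotease genes Adamts9 and Adamts1 differed by 0.87 ± 0.20 and 0.60 ± 0.16. Timp3, a metalloprotease inhibitor gene outside the naming rule and named because the plot shows it, differed by 0.59 ± 0.17. Mmp9, a gelatinase gene, differed by -2.22 ± 0.18 and Tgm2, a transglutaminase gene, by -0.76 ± 0.20.

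**Figure D4:**
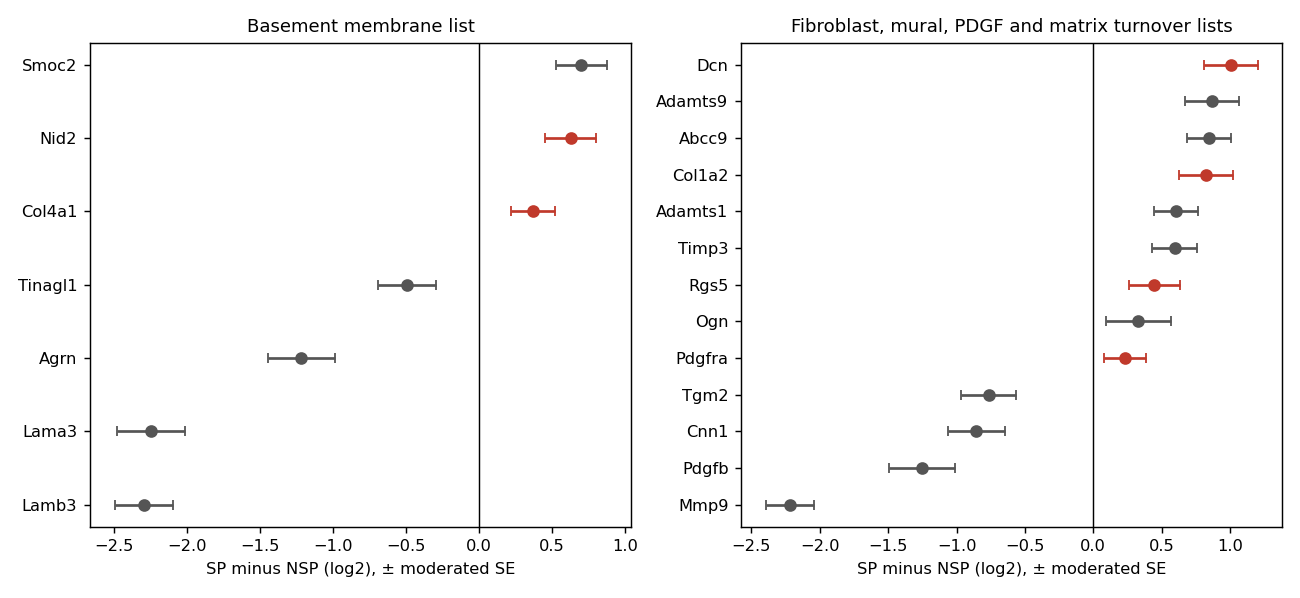
SP minus NSP difference on the log2 scale (horizontal axis, ± moderated SE, 3 pairs) of the named genes of the basement membrane list (left) and of the fibroblast, mural cell, PDGF and matrix turnover lists (right), with the 6 genes described here in red. The 2 laminin genes lie below -2 and Col4a1, Nid2 and Smoc2 lie above 0.

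Named markers of other cell types were on the authors' list because SP and NSP differed, so only their direction and size are described. Of the 1632 listed probe sets tested, 45.3% were higher in SP cells. All 14 named endothelial genes of 22 were higher in SP cells, with a summed signal of 16990 to 20920 in SP and 5373 to 5732 in NSP cells. Their median log2 difference was 1.48, and within pairs 1.54, 1.62 and 1.51, against 0.37, 0.61 and 0.56 for the 6 genes described here. Of the 6, Dcn at 1.01 and Col1a2 at 0.82 lay above the lowest endothelial difference of 0.72, and the other 4 lay below it.

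Epithelial and leukocyte markers ran in the opposite direction. All 6 named luminal genes of 12 were lower in SP cells (summed signal 10683 to 19347 in SP and 34244 to 40926 in NSP cells). So were all 5 named basal genes of 10 (1222 to 1375 in SP and 3268 to 4372 in NSP cells). These 5 include Cnn1, which is also on the pericyte and mural cell list. Of 5 named leukocyte genes of 10, 4 were lower. The other differed by 0.014 ± 0.57 on the log2 scale, but by -0.57 on the authors' deposited dChip values. All 5 together summed to 502.3 to 759.6 in SP and 3447 to 11174 in NSP cells. All 3 named Schwann cell genes of 8 were lower, with sums of 5134 to 5695 in SP and 6216 to 7586 in NSP cells. Most of these sums was Pmp22, which differed by only -0.15 ± 0.15 on the log2 scale. Cnp differed by -0.89 ± 0.27. Sox10 differed by -1.99 ± 0.89, with a signal of 9.0, below the floor, in SP replicate 1. Fabp4, the single gene named of 10 on the adipocyte list, was higher in SP cells within 3 of 3 pairs. It gave 6812, 4023 and 7053 in SP cells, against 5276, 3047 and 4352 in NSP cells. As a single gene, it does not show whether adipocyte RNA differed. Myh3, the single skeletal muscle gene named of 10, gave 13.6 to 67.7 in SP and 194.9 to 536.8 in NSP cells. No named marker of these lists was at the floor on all arrays of a group. Their part in the differences of the 6 genes was not tested.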

How the data were processed

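RNA of SP and NSP cells and a reference RNA was measured on Affymetrix mouse arrays. The deposited intensity per probe set is a linear signal for which the submitters' processing notes name MAS5. Its version and scaling target are not given in the sources used here, apart from that name. The authors deposited dChip values and their differences on a log scale, present calls in percent, a paired test's score and its p-value for 1632 probe sets. Per the file headers, these had a paired p of at most 0.05, a difference of at least 0.185 and a present call in 20 percent or more of each group's arrays. No header states their log base, and the evidence is divided. Their SD was 0.957 of that of log2 signal differences over 1266 bright probe sets, where natural logs would give 0.693. The minimum difference of 0.185 is 1.203-fold as a natural log and 1.137-fold as log2, and the list's title says 1.2-fold. The values are printed as deposited. The authors left out 2 arrays as outliers, per the series' design text.

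Signals were used as deposited, set to a floor of 17.0 (the 20th percentile over all SP and NSP signals together) and log2-transformed. The 38115 probe sets above the floor on at least 3 of 6 arrays, without 64 control probe sets, were tested with limma 3.58.1 under R 4.3.3 (two-sided, lmFit then eBayes; tested on simulated data), with Benjamini-Hochberg adjustment over all of them and a threshold of 0.05. The sample number was a block: the headers show a paired comparison, and in the titles 2 of the 3 pairs share a day. Same-numbered samples correlated at 0.0387, 0.0408 and 0.12 in their deviations from group means. Gene names came from the deposited table, matched to RefSeq genes of GRCm38.p6 (1483 probe sets had 1 symbol). For a gene with several probe sets the brightest stands for it unless both are given. Arrays per group limit the precision. All members are named, from the related lists all named genes or up to 4 of smallest p, and for likeness the 3 of highest correlation. Of the genes this rule names, 2 are not reported here, and 1 of them was taken out of its list. The members and lists were chosen with earlier results of these data known.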

Additional observations from a re-analysis of the deposited data

How the results depend on the processing

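Limma called 0 probe sets with the replicate block and 6 with no replicate block. With an intensity trend it called 942 with the block and 381 with no replicate block. Another setting kept the 16744 brightest by mean, a number from the series' design text. Without control probe sets this left 16712 to test, fewer than in the main fit, and 41 were called. With a pair left out 0 were called, and with 1 array left out and no replicate block 0 to 1. The other settings tried (quantile normalization, centring on the median, floors at the 10th and 40th percentiles, an offset of 16, no filter, a filter on all 6 arrays and the paired t-test) called 0. The cause of these moves was not tested. The 7 probe sets kept their direction under every alternative that gave a value. The block, trend, floor, filter and paired t-test settings left their log2 differences unchanged. The list was chosen on the dChip values, so their direction is no separate check. Only the normalizations, the offset and the left-out arrays could have changed the direction. Dcn passed with the intensity trend with and without the block, and Col4a1 with both together. Leaving out arrays moved the log2 difference of Pdgfra between 0.056 and 0.42, of Nid2 between 0.39 and 0.81 and of Rgs5 between 0.30 and 0.64, and none of the 3 passed. Of 56 values against the reference array recomputed, 5 moved by more than the spread between replicates and 0 reversed. For Rgs5 these depend on the floor, with log2 differences in SP of 3.93 at the 10th percentile and 1.82 at the 40th, and in NSP of 3.48 and 1.37. For dim probe sets the floor bounds such differences, and 1 reference array gives no error.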
